A study of Homo sapiens with 12 samples.

Results

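The genes described here are the ADAM, ADAMTS and ADAMTSL genes of U87, a long-established line of human glioblastoma cells. They were taken by name, as every gene whose symbol is ADAM, ADAMTS or ADAMTSL followed by a number. The family was chosen with earlier results of these data known, so its shares below are descriptions. The rule found 41 of the 35741 genes in the count table, namely 19 ADAM, 18 ADAMTS and 4 ADAMTSL genes. Of these, 25 passed the filter on low counts and were tested among 15715 genes: 13 ADAM, 10 ADAMTS and 2 ADAMTSL genes.

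Messenger RNA was sequenced in 12 libraries, 3 in each of 4 groups. PNA-10b+21 cells were given sgPNA-21 and sgPNA-10b together at 150 nM each, PNA-21 cells were given 150 nM sgPNA-21 alone, PNA-10b cells were given 150 nM sgPNA-10b alone, and Control cells were untreated. Every treated group received its sgPNA in bioadhesive nanoparticles and was incubated for 72 h. An sgPNA is here a short peptide nucleic acid, an oligomer whose backbone resembles that of a peptide, made to pair with the seed of miR-21 or miR-10b. The labels describe a wild-type genotype for the line. They name no arm with empty nanoparticles or with an unrelated PNA, so in every comparison with Control the sgPNA and its carrier cannot be told apart. Whether the 3 libraries of an arm came from different cultures is not stated, so p-values measure differences against a spread between libraries that may be technical.

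ADAM proteins are membrane-anchored proteins with a metalloprotease and a disintegrin domain. The active ones cut other membrane proteins near the cell surface and so release growth factors, cytokines and receptor ectodomains, a step called shedding. ADAMTS proteins are secreted metalloproteases with thrombospondin type repeats, and they cut matrix proteins such as versican, procollagens and fibrillins. ADAMTSL proteins share the repeats but have no protease domain. Several ADAMTS proteins are studied in glioma because the brain matrix is rich in proteoglycans of the versican family.

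Because both agents are made to pair with a microRNA seed, the members' longest annotated 3′ UTRs were searched for the complement of each seed. MicroRNA seeds pair with such sites and lower the level or translation of the transcript, so a site marks a gene that the microRNA could act on directly. The assay did not measure the mature microRNAs themselves. The sequences are shown with the seed, bases 2 to 8 of the mature microRNA, in capitals. The mature miR-21-5p and miR-10a-5p and the miR-10b hairpin come from RefSeq on GRCh38.p14. MIR21 lies at chr17:59841273-59841294 (plus strand, mature part) and the miR-10b hairpin at chr2:176150303-176150412 (plus strand). In the hairpin the seed stands at bases 28 to 34, and miR-10a-5p holds the same seed letters.
hsa-miR-21-5p: uAGCUUAUcagacugauguuga
miR-10b hairpin: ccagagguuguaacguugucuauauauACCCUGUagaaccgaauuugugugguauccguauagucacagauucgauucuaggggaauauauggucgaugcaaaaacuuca
hsa-miR-10a-5p: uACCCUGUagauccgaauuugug

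The miR-21 match ATAAGCT stood in the 3′ UTR of 3 of the 25 tested members, or 12%, against 1336 of 12260 tested genes with a UTR, or 10.9%. The miR-10b match ACAGGGT stood in 3 of the 25, or 12%, against 1944 genes, or 15.9%. The median UTR was 2402 bases for the members and 1649.5 bases for all these genes. The matches of ADAM23, ADAMTS12 and ADAMTS1 are shown from the GENCODE transcripts with the seed match in capitals. The ADAM23 match stood at bases 1755 to 1761 of a UTR of 3503 bases on chromosome 2, and the ADAMTS12 match at bases 1378 to 1384 of 3653 on chromosome 5. The ADAMTS1 match stood at bases 906 to 912 of 1832 on chromosome 21.
ADAM23, miR-21 match: tcacatgttaagtaaATAAGCTgaagaa
ADAMTS12, miR-21 match: ggtgggtggaggggcATAAGCTtcaaat
ADAMTS1, miR-10b match: aatgaggtgtgtagaACAGGGTcccaca

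Total counts ran from 14102709 to 17098686 in PNA-10b+21, from 14634738 to 18305820 in PNA-21, from 14026933 to 16969787 in PNA-10b and from 12846676 to 17053150 in Control. The 41 members together took 0.226% ± 0.00521 of counts in PNA-10b+21, 0.225% ± 0.00291 in PNA-21, 0.237% ± 0.00402 in PNA-10b and 0.240% ± 0.00417 in Control (SD, n = 3 each). Of 9 glioma-associated markers, 7 passed the filter on low counts. VIM, CD44, CHI3L1 and EGFR averaged 1842, 1454, 1392 and 346 CPM in Control. SOX2 and S100B were near 0, at 0.0223 and 0.136 CPM, and were the only 2 of the 9 under 0.5 CPM there. The other glial and progenitor markers of the list, GFAP, OLIG2 and NES, were not under that level but were low. The 9 markers summed to 4692 to 5282 CPM in Control, nearly all of it from VIM, CD44, CHI3L1 and EGFR. CPM denotes counts relative to library size, scaled with TMM factors. Of 11 markers of other cell types, 4 passed the filter on low counts. The 11 summed to 149 to 178 CPM in PNA-10b+21, 167 to 170 CPM in PNA-21, 183 to 204 CPM in PNA-10b and 230 to 256 CPM in Control, most of it from PDGFRB and SNAP25. This sum was lower than Control in every library of the treated arms, as several members below were, and its part in the results was not tested.

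Levels of different members were compared as CPM per kb of annotated exon. In Control, ADAM9 was the highest at 65.3 ± 5.30 CPM per kb, followed by ADAMTS1 at 54.8 ± 0.975 and ADAM12 at 47.4 ± 0.964 (SD, n = 3). ADAM9 lay above ADAMTS1 in every Control library. In PNA-10b+21 and in PNA-21 the order of the first pair was the other way round, with ADAMTS1 at 69.7 ± 1.93 and 67.1 ± 3.30 CPM per kb, against 56.7 ± 3.99 and 51.6 ± 0.640 for ADAM9. In PNA-10b the ADAMTS1 libraries lay within the range of the ADAM9 libraries, which ran from 56.0 to 68.3 CPM per kb. ADAM10, ADAMTSL1 and ADAM15 came next in Control, at 22.2 ± 1.59, 18.7 ± 0.273 and 9.67 ± 0.0438 CPM per kb. ADAM15, ADAMTS12, ADAM8 and ADAMTS5 followed one another within their spread. The lowest tested members were ADAM11 and ADAM32, at 0.137 ± 0.0429 and 0.0858 ± 0.00325 CPM per kb. The 6 members with the most counts held 80.6% of the family's CPM in PNA-10b+21, 80.7% in PNA-21, 81.9% in PNA-10b and 81.8% in Control.

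**Figure D1:**
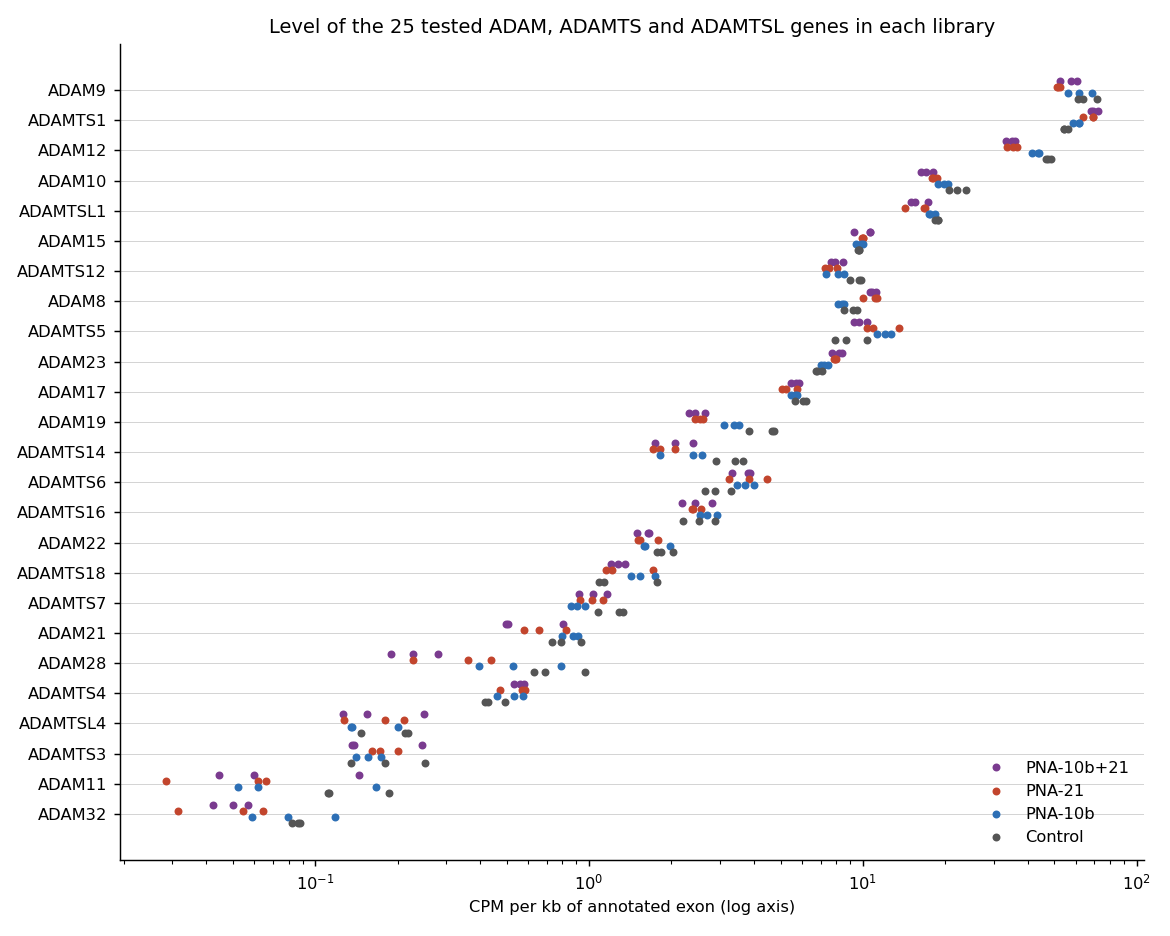
Level of the 25 tested members in each library, as CPM per kb of annotated exon on a log axis, with genes ordered by their mean in Control and each point 1 library. ADAM9, ADAMTS1 and ADAM12 stand above the rest in all 4 groups, and the levels span from about 70 to under 0.1 CPM per kb.

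The 16 members under the filter had at most 7 counts in any library and between 1 and 37 counts over all 12 libraries. They were ADAM5, ADAM7, ADAM20, ADAM29, ADAM30 and ADAM33, then ADAMTS2, ADAMTS8, ADAMTS9, ADAMTS10, ADAMTS15, ADAMTS17, ADAMTS19 and ADAMTS20, and the protease-free ADAMTSL2 and ADAMTSL5. ADAM5 is annotated as a pseudogene. ADAM30, ADAM33, ADAM5 and ADAMTS8 had 0 counts in all 3 Control libraries. ADAMTS9, a versican-cutting protease, had the most, with 7, 1 and 1 counts in PNA-10b+21, 4, 3 and 6 in PNA-21, 0, 1 and 3 in PNA-10b and 5, 4 and 2 in Control. At these counts a difference between groups was not detectable.

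A member was said to pass at a Benjamini-Hochberg adjusted p under 0.05 from the edgeR quasi-likelihood fit over all 15715 genes, and log2 fold changes are given with the standard error of that fit (n = 3 libraries a group). In PNA-10b+21 against Control 4 of the 25 tested members rose and 8 fell, or 48%, where 27% of all genes tested passed in either direction. In PNA-21 against Control 5 rose and 9 fell, or 56%, where 29.8% of all genes passed. In PNA-10b against Control 1 rose and 4 fell, or 20%, where 6.48% of all genes passed. Of all genes 13.6% rose and 13.4% fell in PNA-10b+21, 15.2% and 14.6% in PNA-21, and 2.75% and 3.74% in PNA-10b. The median log2 change of the 25 members was -0.20, -0.21 and -0.09, and that of all genes was -0.00326, -0.00621 and -0.00149. ADAM19, ADAMTS12 and ADAMTS14 passed in all 3 comparisons with Control, 10 members passed in 2 of them, ADAM17 and ADAMTS7 passed in 1, and 10 passed in none. The 3 comparisons share the Control libraries. By the test of any difference among the 4 groups 14 of the 25 members passed, where 29.4% of all genes did. Groups whose libraries did not overlap were common over all genes, at 40.1% for PNA-10b+21, 42.4% for PNA-21 and 23.8% for PNA-10b, each against Control. In these bulk libraries fewer cells that express a gene and less RNA per cell cannot be told apart.

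**Figure D2:**
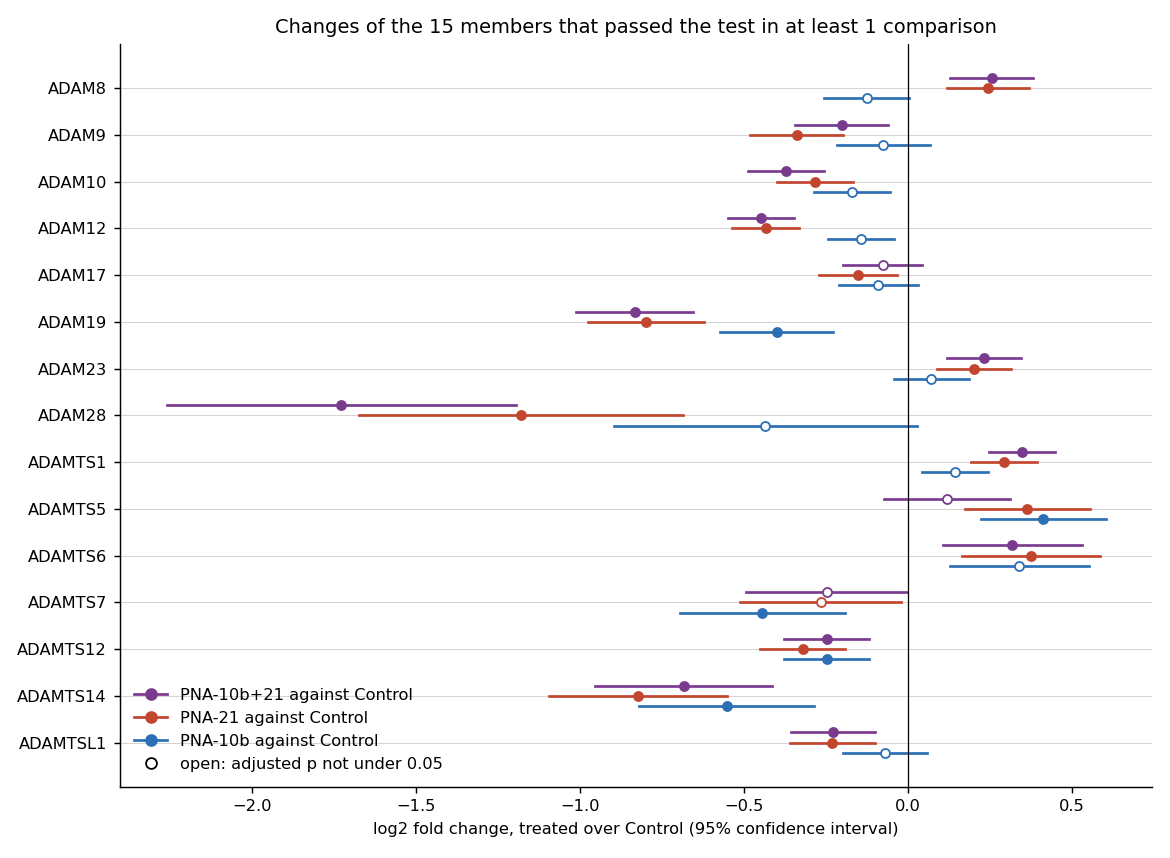
Log2 fold change of the 15 members that passed in at least 1 comparison, for PNA-10b+21, PNA-21 and PNA-10b against Control, with 95% confidence intervals and open points where the adjusted p was not under 0.05. ADAM19, ADAM28 and ADAMTS14 lie farthest to the left, and ADAM8, ADAM23, ADAMTS1, ADAMTS5 and ADAMTS6 lie right of 0 in PNA-21.

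Among the catalytically active ADAM genes 9 were tested. Of these 1 rose and 5 fell in PNA-10b+21, 1 rose and 6 fell in PNA-21, and 0 rose and 1 fell in PNA-10b, each against Control. That was 66.7%, 77.8% and 11.1% of the 9, where 27%, 29.8% and 6.48% of all genes passed in either direction. ADAM19, ADAM12, ADAM10, ADAM9 and ADAM28 were the 5 that fell in both arms with sgPNA-21, and ADAM8 was the one that rose. ADAM15, a protease whose disintegrin domain holds an integrin-binding sequence, passed in none. Its level was 69.6, 61.2 and 69.6 CPM in PNA-10b+21, 66.0, 66.1 and 65.2 CPM in PNA-21, 64.8, 65.8 and 62.3 CPM in PNA-10b, and 63.7, 63.9 and 63.4 CPM in Control, with a change of 0.07 ± 0.06 in PNA-10b+21 (95% interval -0.04 to 0.19) and 0.05 ± 0.05 in PNA-21 (95% interval -0.07 to 0.16). Its PNA-21 libraries all lay above Control, by little, and the other arms overlapped with it. ADAM21, a gene known mostly from testis, had 1.60 ± 0.464 CPM in PNA-10b+21 and 2.17 ± 0.276 CPM in Control (SD, n = 3) and did not pass.

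ADAM19 (meltrin beta, a sheddase of neuregulins; ENSG00000135074, chromosome 5 from 157395534 to 157575775, minus strand in hg38) fell in every treated arm. Its level was 17.8, 18.8 and 20.4 CPM in PNA-10b+21, 19.7, 20.1 and 18.7 CPM in PNA-21, 27.2, 26.0 and 23.9 CPM in PNA-10b, and 35.9, 29.6 and 36.6 CPM in Control. All 6 libraries with sgPNA-21 lay below the 3 PNA-10b libraries, which in turn lay below all 3 Control libraries. The log2 change against Control was -0.83 ± 0.09 (adjusted p = 4.79e-07) in PNA-10b+21, -0.80 ± 0.08 (adjusted p = 8.42e-07) in PNA-21 and -0.40 ± 0.08 (adjusted p = 0.00536) in PNA-10b, or 1.78-fold, 1.74-fold and 1.32-fold lower. ADAM19 shares 62 bases of exon with CYFIP2 on the other strand.

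ADAM12 (meltrin alpha, which cuts insulin-like growth factor binding proteins and the EGF-family ligand HB-EGF; ENSG00000148848, chromosome 10 from 126012381 to 126388455, minus strand) was among the most abundant members. It had 329, 345 and 354 CPM in PNA-10b+21, 359, 347 and 332 CPM in PNA-21, 433, 407 and 431 CPM in PNA-10b, and 466, 458 and 477 CPM in Control. The sgPNA-21 arms did not overlap with Control or with PNA-10b, and each of the 3 PNA-10b libraries also lay below Control. ADAM12 fell by 0.45 ± 0.05 on the log2 scale in PNA-10b+21 (adjusted p = 9.84e-07) and by 0.43 ± 0.05 in PNA-21 (adjusted p = 1.62e-06). In PNA-10b its change was -0.14 ± 0.05 (adjusted p = 0.0852), which did not pass, though it did with DESeq2 (-0.14, adjusted p = 0.0444).

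ADAM10 (the sheddase that makes the first extracellular cut in Notch receptors and releases N-cadherin; ENSG00000137845, chromosome 15 from 58588807 to 58749978, minus strand) had 263, 274 and 292 CPM in PNA-10b+21, 289, 291 and 302 CPM in PNA-21, 320.0, 304 and 329.7 CPM in PNA-10b, and 355, 334 and 385 CPM in Control. The means stood in the order PNA-10b+21, PNA-21, PNA-10b and Control from low to high, the first pair overlapped, and no treated library reached the lowest Control library. Its change was -0.37 ± 0.06 (adjusted p = 4.39e-05) in PNA-10b+21 and -0.28 ± 0.06 (adjusted p = 6.97e-04) in PNA-21. In PNA-10b it was -0.17 ± 0.06 (adjusted p = 0.0720) and did not pass, though it did with DESeq2 (-0.17, adjusted p = 0.0451). ADAM17 (TACE, the sheddase of TNF and of several EGF-family ligands; ENSG00000151694, chromosome 2 from 9488486 to 9556732, minus strand) had 58.5, 61.2 and 62.8 CPM in PNA-10b+21, 56.5, 54.6 and 61.7 CPM in PNA-21, 61.6, 60.5 and 58.6 CPM in PNA-10b, and 60.9, 66.5 and 65.1 CPM in Control, and PNA-21 overlapped with Control. Its change of -0.15 ± 0.06 (adjusted p = 0.0495) in PNA-21 passed narrowly, whereas -0.08 ± 0.06 in PNA-10b+21 and -0.09 ± 0.06 in PNA-10b did not. The PNA-21 call was lost with RLE scaling (-0.15, adjusted p = 0.0503), DESeq2 (-0.15, adjusted p = 0.0809), no filter on low counts (-0.14, adjusted p = 0.180) or only the groups compared (-0.15, adjusted p = 0.0738). It was also lost without Control replicate 2 (-0.13, adjusted p = 0.153), Control replicate 3 (-0.15, adjusted p = 0.112), PNA-10b replicate 1 (-0.15, adjusted p = 0.0562), PNA-10b replicate 2 (-0.15, adjusted p = 0.0624), PNA-21 replicate 1 (-0.14, adjusted p = 0.141), PNA-21 replicate 2 (-0.12, adjusted p = 0.199) or PNA-10b+21 replicate 2 (-0.15, adjusted p = 0.0604). ADAM17 shares 1465 bases of exon with IAH1 and AC073195.1 on the other strand, and the strand setting of the counting is not given in the sources used here.

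ADAM9 (a broadly expressed membrane protease of the meltrin group; ENSG00000168615, chromosome 8 from 38996869 to 39105144, plus strand) had 362, 416 and 398 CPM in PNA-10b+21, 356, 362 and 353 CPM in PNA-21, 472, 426 and 387 CPM in PNA-10b, and 439.6, 422 and 493 CPM in Control. Every PNA-21 and PNA-10b+21 library lay below every Control library, and the PNA-10b libraries overlapped with Control. The change was -0.20 ± 0.07 (adjusted p = 0.0314) in PNA-10b+21, -0.34 ± 0.07 (adjusted p = 8.35e-04) in PNA-21 and -0.08 ± 0.07 (adjusted p = 0.588) in PNA-10b. The PNA-10b+21 call was lost without Control replicate 3 (-0.14, adjusted p = 0.178) or PNA-10b+21 replicate 1 (-0.15, adjusted p = 0.179).

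ADAM28 (a protease first described in lymphocytes; ENSG00000042980, chromosome 8 from 24294040 to 24359018, plus strand) had few counts, between 30 and 154 in a library. Its level was 1.78, 2.12 and 2.64 CPM in PNA-10b+21, 2.12, 4.10 and 3.38 CPM in PNA-21, 4.93, 3.71 and 7.37 CPM in PNA-10b, and 6.44, 9.07 and 5.89 CPM in Control. The PNA-10b+21 and PNA-21 libraries lay below all Control libraries, while the PNA-10b libraries overlapped with Control. The change against Control was -1.73 ± 0.26 (adjusted p = 3.78e-05) in PNA-10b+21, -1.18 ± 0.24 (adjusted p = 8.28e-04) in PNA-21 and -0.44 ± 0.22 (adjusted p = 0.277) in PNA-10b, the last not passing. Among members that passed against Control this was the largest fall, and its standard error of 0.26 was also the largest.

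ADAM8 (CD156, a protease of myeloid cells that is also found on invasive tumour cells; ENSG00000151651, chromosome 10 from 133262403 to 133276868, minus strand) went the other way. It had 50.7, 51.5 and 53.6 CPM in PNA-10b+21, 52.8, 53.9 and 47.9 CPM in PNA-21, 39.9, 38.7 and 40.9 CPM in PNA-10b, and 44.0, 45.4 and 40.7 CPM in Control. All 6 libraries with sgPNA-21 lay above all 6 without it, and PNA-10b overlapped with Control. ADAM8 rose by 0.26 ± 0.06 (adjusted p = 0.00346) in PNA-10b+21 and by 0.24 ± 0.06 (adjusted p = 0.00448) in PNA-21. In PNA-10b the change was -0.13 ± 0.06 (adjusted p = 0.261) and did not pass.

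The ADAM genes without a protease active site were ADAM11, ADAM22, ADAM23 and ADAM32 among those tested. ADAM23 (ENSG00000114948, chromosome 2 from 206443539 to 206621130, plus strand), a receptor for the secreted protein LGI1 on neurons, rose in 2 arms and was the one of these to pass. That was 25% of the 4 in PNA-10b+21 and in PNA-21, where 27% and 29.8% of all genes passed. ADAM23 had 53.6, 52.7 and 49.5 CPM in PNA-10b+21, 50.9, 50.4 and 51.1 CPM in PNA-21, 46.3, 47.9 and 45.1 CPM in PNA-10b, and 45.7, 43.7 and 43.3 CPM in Control. The libraries of both sgPNA-21 arms lay above all Control libraries, and PNA-10b overlapped with Control. Its change was 0.23 ± 0.05 (adjusted p = 0.00306) in PNA-10b+21, 0.20 ± 0.05 (adjusted p = 0.00830) in PNA-21 and 0.07 ± 0.06 (adjusted p = 0.519) in PNA-10b. ADAM22, the partner receptor of LGI1, had a change of -0.23 ± 0.09 (adjusted p = 0.0797) in PNA-10b+21 and -0.21 ± 0.09 (adjusted p = 0.0938) in PNA-21, neither passing. ADAM11 and ADAM32 had at most 19 counts in a library and wide intervals, of -1.67 to 0.35 and -1.51 to -0.00 on the log2 scale in PNA-10b+21.

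**Figure D3:**
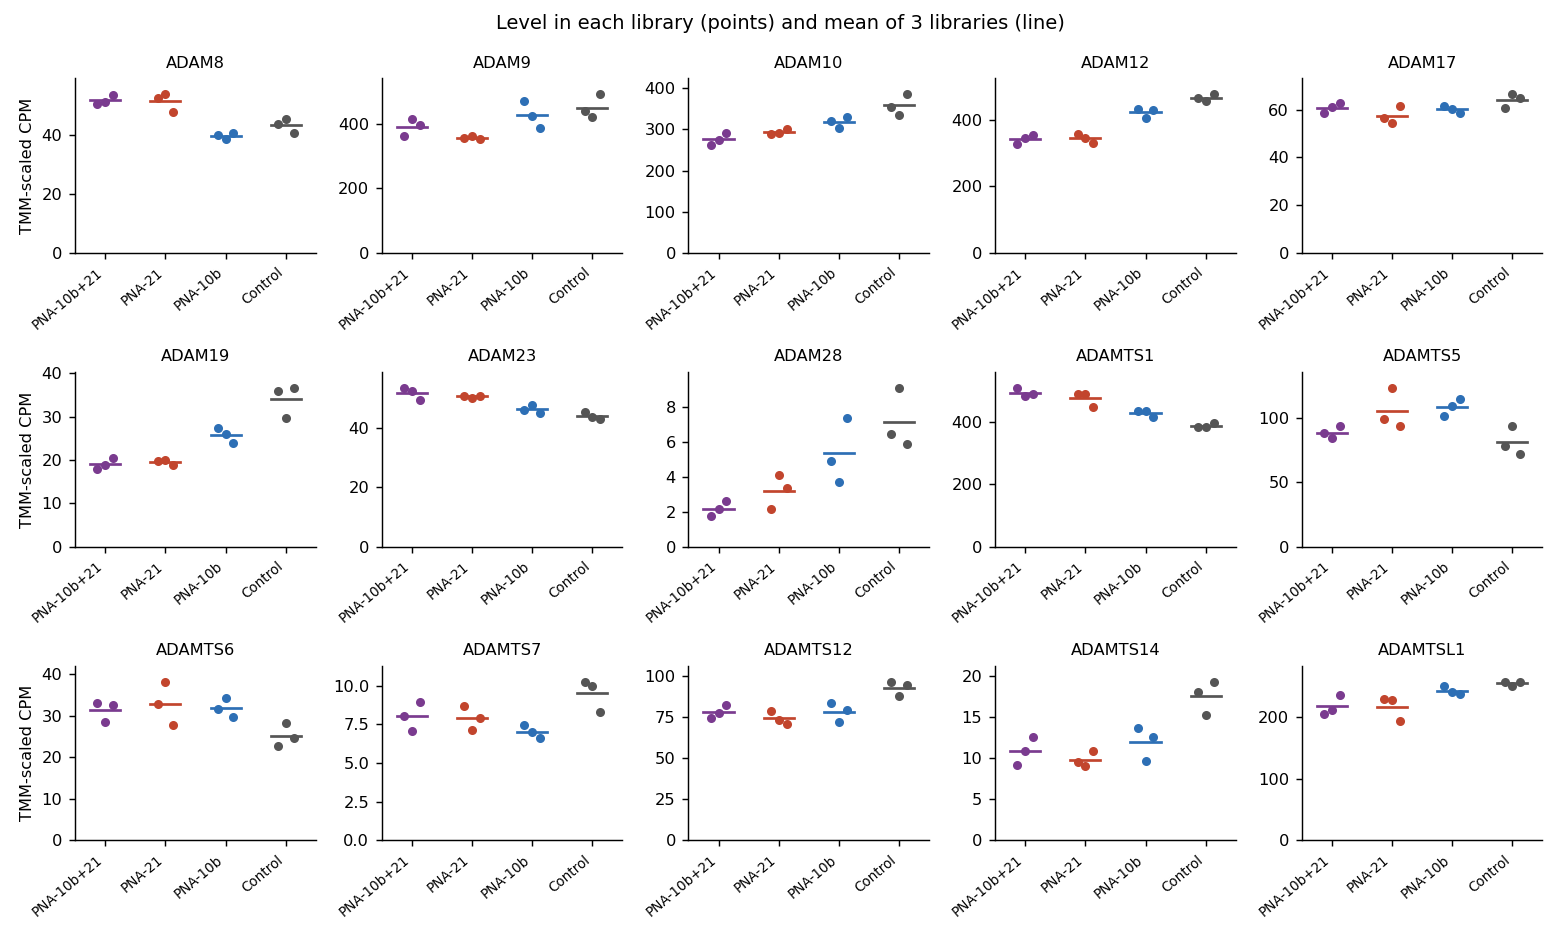
TMM-scaled CPM of the 15 members that passed in at least 1 comparison, with 1 point per library, a line at the mean of 3 libraries and every axis starting at 0. The points of PNA-10b+21 and PNA-21 lie below Control for ADAM12 and ADAM19 and above it for ADAM8 and ADAMTS1, and ADAMTS5 is highest in the single arms.

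The ADAMTS genes were grouped by substrate. Of the 7 that cut versican and related proteoglycans, 3 were tested: ADAMTS1, ADAMTS4 and ADAMTS5. Their changes against Control were all above 0, and 1 passed for PNA-10b+21, 2 for PNA-21 and 1 for PNA-10b. That was 33.3%, 66.7% and 33.3% of the 3, where 27%, 29.8% and 6.48% of all genes passed in either direction. ADAMTS1 (ENSG00000154734, chromosome 21 from 26835747 to 26845409, minus strand) was the most abundant ADAMTS gene, at 507, 480.4 and 489 CPM in PNA-10b+21, 488, 487 and 447 CPM in PNA-21, 435, 433 and 414 CPM in PNA-10b, and 382, 384 and 395 CPM in Control. No treated library overlapped with Control, and both sgPNA-21 arms lay above PNA-10b. ADAMTS1 rose by 0.35 ± 0.05 (adjusted p = 1.99e-05) in PNA-10b+21 and by 0.29 ± 0.05 (adjusted p = 1.37e-04) in PNA-21, while 0.14 ± 0.05 (adjusted p = 0.0858) in PNA-10b did not pass, though it did with DESeq2 (0.14, adjusted p = 0.0361). ADAMTS4 had 5.76 ± 0.236 CPM in PNA-10b+21, 5.59 ± 0.603 in PNA-21, 5.41 ± 0.590 in PNA-10b and 4.60 ± 0.421 in Control (SD, n = 3). Its changes of 0.33 ± 0.14, 0.29 ± 0.14 and 0.25 ± 0.14 did not pass.

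ADAMTS5 (ENSG00000154736, chromosome 21 from 26917912 to 26966513, minus strand), an aggrecanase, lies 72502 bases from ADAMTS1 on the same strand. It had 87.8, 83.9 and 93.7 CPM in PNA-10b+21, 98.7, 123 and 93.8 CPM in PNA-21, 102, 109 and 114 CPM in PNA-10b, and 78.2, 93.7 and 71.6 CPM in Control. The PNA-10b libraries and, narrowly, the PNA-21 libraries lay above all Control libraries, whereas the PNA-10b+21 libraries fell within the Control range. Its change was 0.12 ± 0.09 (adjusted p = 0.376) in PNA-10b+21, 0.36 ± 0.09 (adjusted p = 0.00466) in PNA-21 and 0.41 ± 0.09 (adjusted p = 0.00867) in PNA-10b. It was the one member to rise in PNA-10b, and that call was lost without Control replicate 1 (0.39, adjusted p = 0.0581) or Control replicate 3 (0.34, adjusted p = 0.0635).

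Among the procollagen N-proteinases, which trim fibrillar procollagens, ADAMTS14 and ADAMTS3 were tested. ADAMTS14 (ENSG00000138316, chromosome 10 from 70672803 to 70762441, plus strand) fell in every treated arm. It had 9.17, 10.8 and 12.6 CPM in PNA-10b+21, 9.56, 9.01 and 10.8 CPM in PNA-21, 13.6, 9.61 and 12.6 CPM in PNA-10b, and 18.0, 15.3 and 19.3 CPM in Control. No treated library reached the lowest Control library. Its change was -0.68 ± 0.13 (adjusted p = 4.75e-04) in PNA-10b+21, -0.82 ± 0.13 (adjusted p = 8.15e-05) in PNA-21 and -0.55 ± 0.13 (adjusted p = 0.0121) in PNA-10b. The PNA-10b call was lost without Control replicate 1 (-0.53, adjusted p = 0.0640), Control replicate 3 (-0.48, adjusted p = 0.0718) or PNA-10b replicate 2 (-0.41, adjusted p = 0.116). ADAMTS3 had 1.24 ± 0.448 CPM in PNA-10b+21 and 1.36 ± 0.424 CPM in Control and did not pass.

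ADAMTS12 and ADAMTS7 are a pair that cut cartilage oligomeric matrix protein. ADAMTS12 (ENSG00000151388, chromosome 5 from 33523535 to 33892192, minus strand) had 74.6, 77.4 and 82.6 CPM in PNA-10b+21, 78.9, 73.3 and 70.8 CPM in PNA-21, 83.4, 71.8 and 79.6 CPM in PNA-10b, and 96.4, 88.0 and 94.4 CPM in Control. All 9 treated libraries lay below all 3 Control libraries, and the treated arms overlapped with each other. Its change was -0.25 ± 0.06 (adjusted p = 0.00504) in PNA-10b+21, -0.32 ± 0.06 (adjusted p = 5.94e-04) in PNA-21 and -0.25 ± 0.06 (adjusted p = 0.0189) in PNA-10b. The PNA-10b call was lost without Control replicate 1 (-0.22, adjusted p = 0.103), Control replicate 3 (-0.24, adjusted p = 0.0767) or PNA-10b replicate 2 (-0.19, adjusted p = 0.165). ADAMTS7 (ENSG00000136378, chromosome 15 from 78759203 to 78811431, minus strand) had 8.02, 7.08 and 8.98 CPM in PNA-10b+21, 8.68, 7.17 and 7.92 CPM in PNA-21, 7.46, 7.01 and 6.62 CPM in PNA-10b, and 10.3, 9.96 and 8.31 CPM in Control. Only the PNA-10b libraries all lay below Control, and the other arms overlapped with it. Its change was -0.25 ± 0.12 (adjusted p = 0.128) in PNA-10b+21, -0.27 ± 0.12 (adjusted p = 0.0929) in PNA-21 and -0.44 ± 0.12 (adjusted p = 0.0295) in PNA-10b, where it passed. That call was lost with DESeq2 (-0.44, adjusted p = 0.0557) and without Control replicate 1 (-0.39, adjusted p = 0.136), Control replicate 2 (-0.41, adjusted p = 0.0781), PNA-10b replicate 2 (-0.44, adjusted p = 0.117) or PNA-10b replicate 3 (-0.40, adjusted p = 0.0946). The intervals of the 3 changes overlap, and PNA-21 against PNA-10b was 0.18 ± 0.12 (adjusted p = 0.422).

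ADAMTS6 (ENSG00000049192, chromosome 5 from 65148736 to 65481920, minus strand), a relative of the fibrillin-binding ADAMTS10, had 33.2, 28.5 and 32.6 CPM in PNA-10b+21, 32.9, 38.2 and 27.7 CPM in PNA-21, 31.7, 34.3 and 29.8 CPM in PNA-10b, and 22.8, 28.2 and 24.6 CPM in Control. The PNA-10b+21 and PNA-10b libraries lay above all Control libraries, and 1 PNA-21 library lay within the Control range. ADAMTS6 rose by 0.32 ± 0.10 (adjusted p = 0.0243) in PNA-10b+21 and by 0.37 ± 0.10 (adjusted p = 0.00814) in PNA-21, and its 0.34 ± 0.10 (adjusted p = 0.0506) in PNA-10b just missed the threshold and passed with DESeq2 (0.34, adjusted p = 0.0292). The PNA-10b+21 call was lost without Control replicate 1 (0.25, adjusted p = 0.134), Control replicate 3 (0.30, adjusted p = 0.0701), PNA-10b+21 replicate 1 (0.27, adjusted p = 0.115) or PNA-10b+21 replicate 3 (0.29, adjusted p = 0.0724), and the PNA-21 call without Control replicate 1 (0.30, adjusted p = 0.0600) or PNA-21 replicate 2 (0.26, adjusted p = 0.0643). ADAMTS16 and ADAMTS18, a pair of related proteases, did not pass, with changes of -0.03 ± 0.11 and -0.08 ± 0.17 in PNA-10b+21.

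ADAMTSL1 (punctin, a secreted matrix protein; ENSG00000178031, chromosome 9 from 17906563 to 18910950, plus strand) had 204, 212 and 236 CPM in PNA-10b+21, 230.3, 228 and 194 CPM in PNA-21, 250.5, 241 and 237 CPM in PNA-10b, and 257, 251 and 257 CPM in Control. All treated libraries lay below all Control libraries. Its change was -0.23 ± 0.06 (adjusted p = 0.00841) in PNA-10b+21, -0.23 ± 0.06 (adjusted p = 0.00763) in PNA-21 and -0.07 ± 0.06 (adjusted p = 0.580) in PNA-10b, the last not passing. The PNA-10b+21 call was lost without PNA-10b+21 replicate 1 (-0.19, adjusted p = 0.0649), and the PNA-21 call without PNA-21 replicate 3 (-0.16, adjusted p = 0.0508). ADAMTSL4, a fibrillin-binding protein needed to hold the eye lens in place, had 1.60, 0.991 and 0.816 CPM in PNA-10b+21, 1.36, 0.819 and 1.16 CPM in PNA-21, 0.869, 1.30 and 0.875 CPM in PNA-10b, and 1.41, 0.943 and 1.37 CPM in Control and did not pass. ADAMTSL5 stayed under the filter, at 0.0573, 0.212 and 0.0628 CPM in PNA-10b+21, 0.0590, 0 and 0.211 CPM in PNA-21, 0.145, 0.118 and 0 CPM in PNA-10b, and 0.402, 0.295 and 0.161 CPM in Control. Both of these overlapped between groups, except that all PNA-10b libraries of ADAMTSL5 lay below all Control libraries at counts of 0 to 6.

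The genes with a miR-21 match did not move one way in PNA-21. ADAM23 rose by 0.20 on the log2 scale, whereas ADAMTS12 and ADAM28, which also has a match, fell by 0.32 and 1.18. None of the 3 genes with a miR-10b match passed in PNA-10b with edgeR, and 1 of them, ADAMTS1, passed with DESeq2 (0.14, adjusted p = 0.0361). Their changes there ran from -0.08 to 0.25. Members that passed in both sgPNA-21 arms were mixed in this respect. Some held a match, such as ADAM23, ADAM28, ADAMTS12 and ADAMTS1. Others, such as ADAM19, ADAMTS14 and ADAM12, held neither match in their longest annotated UTR.

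Promoters were compared for members that fell together and for ADAM8, which rose. RefSeq held a promoter, 250 bases before to 50 after RefSeq's annotated start, which can differ from the GENCODE gene start, for 17 of the 25 tested members. The motifs were chosen after the members' values were seen and searched on both strands. TGANTCA, the AP-1 motif, stood in 1 of the 17, ADAMTS12, against 7.71% of 35116 promoters. ACGTG, the core of the hypoxia response element, stood in 5, against 21.4%. These were ADAM10, ADAM12, ADAM17, ADAMTS3 and ADAMTS6. CACGTG, the E-box, which contains ACGTG, stood in ADAM10 and ADAMTS6, against 7.26% of promoters. The GC box GGGCGG stood in 13 of the 17, against 45.0%. These shares are over all 35116 promoters, tested or not, and not over tested genes as for the UTRs. They are thus an unlike background for the 17, which are all of tested genes. A match is a description of letters and not of binding. The promoters of ADAM19, ADAM12 and ADAMTS14, which fell, and of ADAM8 are printed with matches to these motifs in capitals. They lie at chr5:157575726-157576025 (minus strand), chr10:126388428-126388727 (minus strand), chr10:70672256-70672555 (plus strand) and chr10:133276819-133277118 (minus strand) of GRCh38.p14.
ADAM19: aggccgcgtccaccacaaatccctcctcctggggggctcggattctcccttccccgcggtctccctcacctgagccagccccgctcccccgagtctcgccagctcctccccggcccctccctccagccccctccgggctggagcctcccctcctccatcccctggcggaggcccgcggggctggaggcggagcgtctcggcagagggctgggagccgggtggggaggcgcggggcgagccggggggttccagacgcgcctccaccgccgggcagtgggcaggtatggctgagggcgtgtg
ADAM12: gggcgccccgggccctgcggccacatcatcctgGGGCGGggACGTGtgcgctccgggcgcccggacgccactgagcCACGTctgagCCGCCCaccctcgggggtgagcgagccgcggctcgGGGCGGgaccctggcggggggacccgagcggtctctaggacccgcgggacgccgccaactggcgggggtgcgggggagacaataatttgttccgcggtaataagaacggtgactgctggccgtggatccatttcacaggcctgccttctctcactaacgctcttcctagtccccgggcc
ADAMTS14: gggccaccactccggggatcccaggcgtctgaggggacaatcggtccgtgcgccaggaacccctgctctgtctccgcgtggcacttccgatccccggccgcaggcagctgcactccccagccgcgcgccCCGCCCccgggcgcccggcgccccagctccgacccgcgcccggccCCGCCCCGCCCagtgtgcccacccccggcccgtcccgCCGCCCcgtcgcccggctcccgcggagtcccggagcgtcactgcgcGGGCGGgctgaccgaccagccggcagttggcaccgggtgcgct
ADAM8: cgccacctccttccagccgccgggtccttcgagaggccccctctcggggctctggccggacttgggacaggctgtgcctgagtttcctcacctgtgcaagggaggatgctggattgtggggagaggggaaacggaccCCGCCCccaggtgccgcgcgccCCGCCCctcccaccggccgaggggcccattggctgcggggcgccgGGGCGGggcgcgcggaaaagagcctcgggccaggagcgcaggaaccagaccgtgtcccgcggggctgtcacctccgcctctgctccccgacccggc
The ADAM19 window held none of the 4 motifs. ADAM12 held 3 GC boxes and 2 ACGTG matches, ADAMTS14 held 5 GC boxes and ADAM8 held 3. By base composition the windows were 75.7%, 71.0%, 79.7% and 74.0% G and C, in the order printed.

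The combined arm was then set against each single arm. It was given 150 nM of each sgPNA, and a single arm 150 nM in all, so the total dose differed too. Whether the amount of carrier also differed is not stated. In these comparisons the added sgPNA thus cannot be told apart from a higher total dose or more carrier. PNA-10b+21 and PNA-21 differ by sgPNA-10b and by total sgPNA dose. Between them 0 of the 25 members passed with edgeR, where 0% of all genes passed. At an unadjusted p under 0.05 there were 1354 genes and 1 member, and DESeq2 called 25 genes and 0 members. The lowest adjusted p of a member was 0.395, for ADAMTS5 at -0.25 ± 0.09. Its 3 PNA-10b+21 libraries lay below the 3 PNA-21 libraries, as the groups did not overlap for 14.3% of all genes. For ADAM19, ADAM12 and ADAM8 the 95% intervals of this difference were -0.22 to 0.15, -0.12 to 0.09 and -0.11 to 0.13 on the log2 scale. For ADAM28 the interval was wide, -1.14 to 0.04.

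PNA-10b+21 and PNA-10b differ by sgPNA-21 and by total sgPNA dose. Between them 2 members rose and 5 fell, or 28%, where 9.7% of all genes passed, 4.61% higher and 5.1% lower. ADAM28 fell, at -1.29 ± 0.27 (adjusted p = 0.00357) on the log2 scale, as did ADAM19, at -0.43 ± 0.09 (adjusted p = 0.00308), and ADAM12, at -0.31 ± 0.05 (adjusted p = 3.42e-04). ADAM10 and ADAMTS5 also fell, at -0.20 ± 0.06 (adjusted p = 0.0255) and -0.29 ± 0.09 (adjusted p = 0.0435). ADAM8 rose by 0.38 ± 0.06 (adjusted p = 3.73e-04) and ADAMTS1 by 0.20 ± 0.05 (adjusted p = 0.00949). All 7 kept the 2 groups apart, as 28.2% of all genes did. They were selected by the test on these same libraries, so this separation adds no support to the calls. The ADAM10 call was lost without PNA-10b replicate 1 (-0.20, adjusted p = 0.0630), PNA-10b replicate 3 (-0.18, adjusted p = 0.109), PNA-10b+21 replicate 1 (-0.17, adjusted p = 0.157) or PNA-10b+21 replicate 2 (-0.19, adjusted p = 0.0920). The ADAMTS1 call was lost without PNA-10b replicate 3 (0.18, adjusted p = 0.0588) or PNA-10b+21 replicate 1 (0.18, adjusted p = 0.0782). The ADAMTS5 call was lost with DESeq2 (-0.29, adjusted p = 0.123) and without Control replicate 1 (-0.30, adjusted p = 0.0570), PNA-10b replicate 2 (-0.29, adjusted p = 0.108), PNA-10b replicate 3 (-0.26, adjusted p = 0.162), PNA-21 replicate 1 (-0.29, adjusted p = 0.0502), PNA-10b+21 replicate 1 (-0.29, adjusted p = 0.147) or PNA-10b+21 replicate 2 (-0.26, adjusted p = 0.160).

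Between PNA-21 and PNA-10b, given at the same dose and for the same time, 1 member rose and 3 fell, or 16%, where 6.79% of all genes passed, 2.91% higher and 3.88% lower. ADAM8 was higher in PNA-21 by 0.37 ± 0.06 (adjusted p = 6.68e-04). ADAM19 was lower at -0.40 ± 0.09 (adjusted p = 0.00690), ADAM12 at -0.29 ± 0.05 (adjusted p = 7.23e-04) and ADAM9 at -0.26 ± 0.07 (adjusted p = 0.0227). The libraries of these 4 genes did not overlap between the arms, which held for 26.2% of all genes. The 4 were likewise selected by the test on these libraries, so this adds no support. The ADAM9 call was lost without PNA-10b replicate 1 (-0.19, adjusted p = 0.147), PNA-10b replicate 2 (-0.27, adjusted p = 0.0563), PNA-21 replicate 1 (-0.26, adjusted p = 0.0763) or PNA-21 replicate 3 (-0.26, adjusted p = 0.0643). ADAM28, at -0.75 ± 0.25 (adjusted p = 0.0727), did not pass, but passed with DESeq2 (-0.74, adjusted p = 0.0471) and without the filter on low counts (-0.74, adjusted p = 8.69e-04). For ADAMTS14, ADAMTS12 and ADAMTS6 the 95% intervals of the difference were -0.55 to 0.01, -0.20 to 0.06 and -0.17 to 0.24.

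The interaction asks whether the change in PNA-10b+21 differed from the sum of the single-arm changes on the log2 scale. Both single-arm changes are against untreated Control, so a change that the carrier makes in every treated arm enters this term and cannot be told apart from an effect of the sgPNAs together. It passed for 3 members, 2 above 0 and 1 below, or 12%, where 3.12% of all genes passed, 1.48% above 0 and 1.64% below. For ADAMTS5 a change of 0.12 in PNA-10b+21 stood against 0.36 in PNA-21 alone and 0.41 in PNA-10b alone, an interaction of -0.66 ± 0.13 (adjusted p = 0.0101). For ADAMTS14 the changes were -0.68 for PNA-10b+21, -0.82 for PNA-21 and -0.55 for PNA-10b, an interaction of 0.69 ± 0.19 (adjusted p = 0.0474). For ADAMTS12 they were -0.25, -0.32 and -0.25 in the same order, an interaction of 0.32 ± 0.09 (adjusted p = 0.0494). The ADAMTS14 and ADAMTS12 combined arms thus lay within the spread of their single arms rather than at the sum. The ADAMTS5 call held without each library in turn. The ADAMTS14 call was lost with upper quartile scaling (0.70, adjusted p = 0.0502) and without Control replicate 1 (0.67, adjusted p = 0.114), Control replicate 3 (0.62, adjusted p = 0.129), PNA-10b replicate 2 (0.55, adjusted p = 0.156), PNA-10b replicate 3 (0.74, adjusted p = 0.0671), PNA-21 replicate 1 (0.67, adjusted p = 0.0823), PNA-21 replicate 2 (0.64, adjusted p = 0.129), PNA-10b+21 replicate 2 (0.69, adjusted p = 0.107) or PNA-10b+21 replicate 3 (0.57, adjusted p = 0.121). The ADAMTS12 call was lost with RLE scaling (0.32, adjusted p = 0.0512) and without Control replicate 1 (0.29, adjusted p = 0.126), Control replicate 3 (0.31, adjusted p = 0.118), PNA-10b replicate 2 (0.26, adjusted p = 0.174), PNA-10b replicate 3 (0.33, adjusted p = 0.0757), PNA-21 replicate 2 (0.31, adjusted p = 0.127), PNA-21 replicate 3 (0.29, adjusted p = 0.0987), PNA-10b+21 replicate 1 (0.36, adjusted p = 0.0518), PNA-10b+21 replicate 2 (0.33, adjusted p = 0.103) or PNA-10b+21 replicate 3 (0.28, adjusted p = 0.108). ADAM19, at 0.37 ± 0.12 (adjusted p = 0.0997), did not pass.

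**Figure D4:**
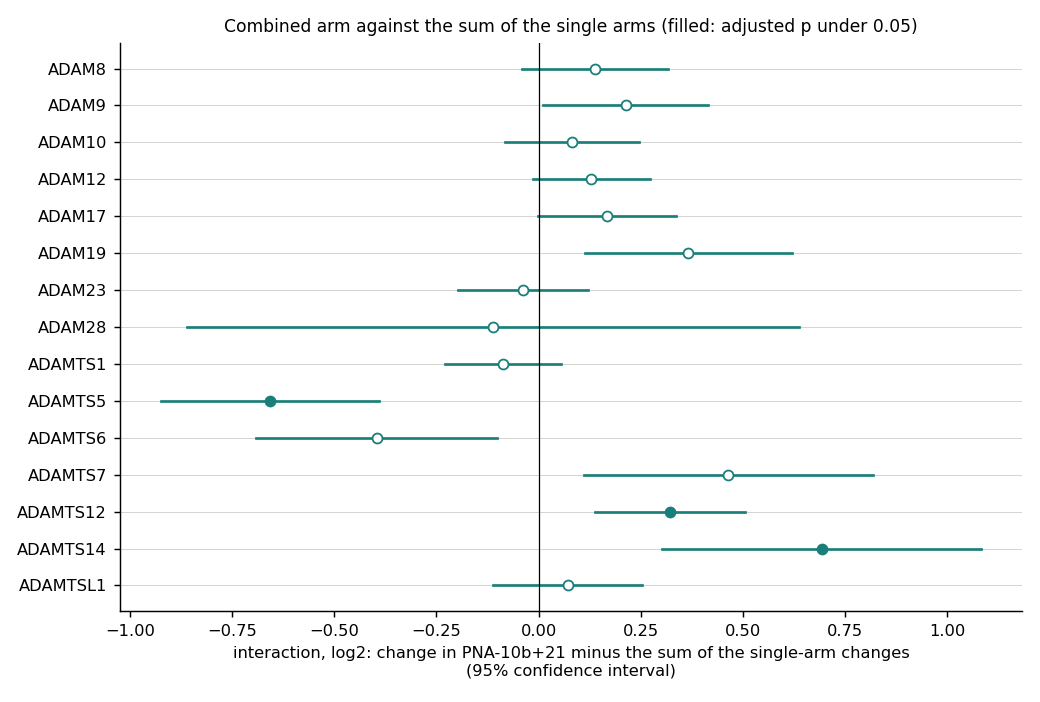
Interaction on the log2 scale, the change in PNA-10b+21 minus the sum of the changes in PNA-21 and PNA-10b, for the 15 members that passed in at least 1 comparison, with 95% confidence intervals and filled points where the adjusted p was under 0.05. ADAMTS5 lies left of 0, and ADAMTS12 and ADAMTS14 lie right of it.

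Genes that act with the proteases were counted by list. Of 6 tested inhibitors and clearance receptors, 4 fell and 0 rose in PNA-10b+21, 4 fell in PNA-21 and 2 fell in PNA-10b. These were 66.7%, 66.7% and 33.3% of the list, where 27%, 29.8% and 6.48% of all genes passed in either direction. TIMP3, the matrix-bound inhibitor of ADAM10, ADAM17 and ADAMTS4 and ADAMTS5, had 36.4, 39.9 and 38.0 CPM in PNA-10b+21, 32.8, 34.8 and 39.7 CPM in PNA-21, 58.1, 52.2 and 57.6 CPM in PNA-10b, and 67.7, 63.2 and 71.1 CPM in Control. Both sgPNA-21 arms lay below PNA-10b, which lay below Control, and its log2 change was -0.82 ± 0.07 (adjusted p = 4.91e-08) in PNA-10b+21, -0.91 ± 0.07 (adjusted p = 1.88e-08) in PNA-21 and -0.27 ± 0.07 (adjusted p = 0.0216) in PNA-10b. LRP1, the endocytic receptor that clears ADAMTS4 and ADAMTS5, had -0.32 ± 0.05 (adjusted p = 1.24e-04), -0.43 ± 0.05 (adjusted p = 5.96e-06) and -0.14 ± 0.05 (adjusted p = 0.135) in the same order, and the last did not pass. TIMP4 fell by 0.32 ± 0.10 in PNA-10b+21 (adjusted p = 0.0186) and by 0.30 ± 0.10 in PNA-21 (adjusted p = 0.0250). TIMP2 fell in all 3 arms, by 0.25 to 0.28. TIMP1, another inhibitor of ADAM10, and the membrane-anchored RECK did not pass, with 0.00 ± 0.06 and -0.15 ± 0.07 in PNA-10b+21.

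Of 15 genes for the maturation and traffic of ADAM proteins, 0 rose and 2 fell in PNA-10b+21, 3 fell in PNA-21 and 1 fell in PNA-10b. These were 13.3%, 20% and 6.67% of the list, where 27%, 29.8% and 6.48% of all genes passed, shares below or near those of all genes, and the values that follow describe single genes. FURIN, a convertase that removes the propeptide of many ADAM and ADAMTS proteins, fell by 0.15 ± 0.05 in PNA-21 (adjusted p = 0.0284) and by 0.23 ± 0.05 in PNA-10b (adjusted p = 0.00618), and its -0.10 ± 0.05 (adjusted p = 0.139) in PNA-10b+21 did not pass. The related convertase PCSK5 had -0.46 ± 0.10 (adjusted p = 0.00161) in PNA-10b+21 and -0.40 ± 0.10 (adjusted p = 0.00399) in PNA-21. DLG1, a scaffold that binds ADAM10, fell by 0.20 and 0.24 in these arms. The iRhom genes RHBDF1 and RHBDF2, which carry ADAM17 to the cell surface, had 0.04 ± 0.06 and -0.05 ± 0.08 in PNA-10b+21 and did not pass. Of the 4 genes that glycosylate thrombospondin repeats, POFUT2 alone passed, or 25% in each sgPNA-21 arm against the same 27% and 29.8% of all genes, at -0.25 ± 0.05 (adjusted p = 8.42e-04) in PNA-10b+21 and -0.25 ± 0.05 (adjusted p = 8.82e-04) in PNA-21.

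Of 7 tested EGF-family ligands, which ADAM17 and ADAM10 release from the membrane, 2 rose and 1 fell in PNA-10b+21, 3 rose and 1 fell in PNA-21, and 1 rose and 1 fell in PNA-10b. These were 42.9%, 57.1% and 28.6% of the list, where 27%, 29.8% and 6.48% of all genes passed. EREG (epiregulin) had 386, 329.5 and 321 CPM in PNA-10b+21, 362, 388 and 361 CPM in PNA-21, 227, 262 and 266 CPM in PNA-10b, and 196, 226 and 188 CPM in Control. Each treated library lay above all Control libraries, and EREG rose by 0.77 ± 0.08 (adjusted p = 2.97e-07), 0.86 ± 0.08 (adjusted p = 6.43e-08) and 0.31 ± 0.08 (adjusted p = 0.0173) in PNA-10b+21, PNA-21 and PNA-10b. TGFA had 24.1, 30.0 and 35.7 CPM in PNA-10b+21, 33.9, 31.8 and 28.7 CPM in PNA-21, 39.6, 38.7 and 38.7 CPM in PNA-10b, and 56.2, 53.6 and 56.5 CPM in Control. All treated libraries lay below Control, and TGFA had -0.89 ± 0.09 (adjusted p = 6.32e-07), -0.82 ± 0.09 (adjusted p = 1.75e-06) and -0.51 ± 0.09 (adjusted p = 0.00174) in the same order. HBEGF rose by 0.25 ± 0.09 in PNA-10b+21 (adjusted p = 0.0340) and 0.26 ± 0.09 in PNA-21 (adjusted p = 0.0265). BTC rose in PNA-21, at 0.85 ± 0.31 (adjusted p = 0.0400) and about 1 CPM. NRG1, neuregulin-1, had 0.05, 0.16 and 0.28 in the order above and did not pass.

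Of 19 other tested proteins that ADAM proteases shed, 4 rose and 8 fell in PNA-10b+21, 4 rose and 8 fell in PNA-21, and 0 rose and 1 fell in PNA-10b. These were 63.2%, 63.2% and 5.26% of the list, where 27%, 29.8% and 6.48% of all genes passed. By the smallest p over the 4 groups they were led by the proteoglycan SDC4, the receptor LRP1, the adhesion molecule ALCAM and the phosphatase PTPRF. SDC4 had -0.53 ± 0.06 (adjusted p = 8.67e-07) in PNA-10b+21 and -0.40 ± 0.06 (adjusted p = 2.65e-05) in PNA-21, ALCAM -0.40 and -0.28, and PTPRF -0.86 and -0.74. In PNA-10b these 3 had -0.01, -0.02 and -0.08 and did not pass. Of 15 tested matrix substrates of ADAMTS proteases, 1 rose and 10 fell in PNA-10b+21, 1 rose and 10 fell in PNA-21, and 0 rose and 6 fell in PNA-10b. These were 73.3%, 73.3% and 40% of the list, where 27%, 29.8% and 6.48% of all genes passed. COL5A1, COL1A1 and COL3A1, fibrillar procollagens that ADAMTS14 and its relatives trim, had -1.11, -0.86 and -1.60 in PNA-10b+21. In PNA-10b the same 3 had -0.50, -0.53 and -1.69. FBN1, fibrillin-1, fell by 0.68 in PNA-10b+21 and 0.65 in PNA-21, and had -0.06 ± 0.08 (adjusted p = 0.740) in PNA-10b.

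**Figure D5:**
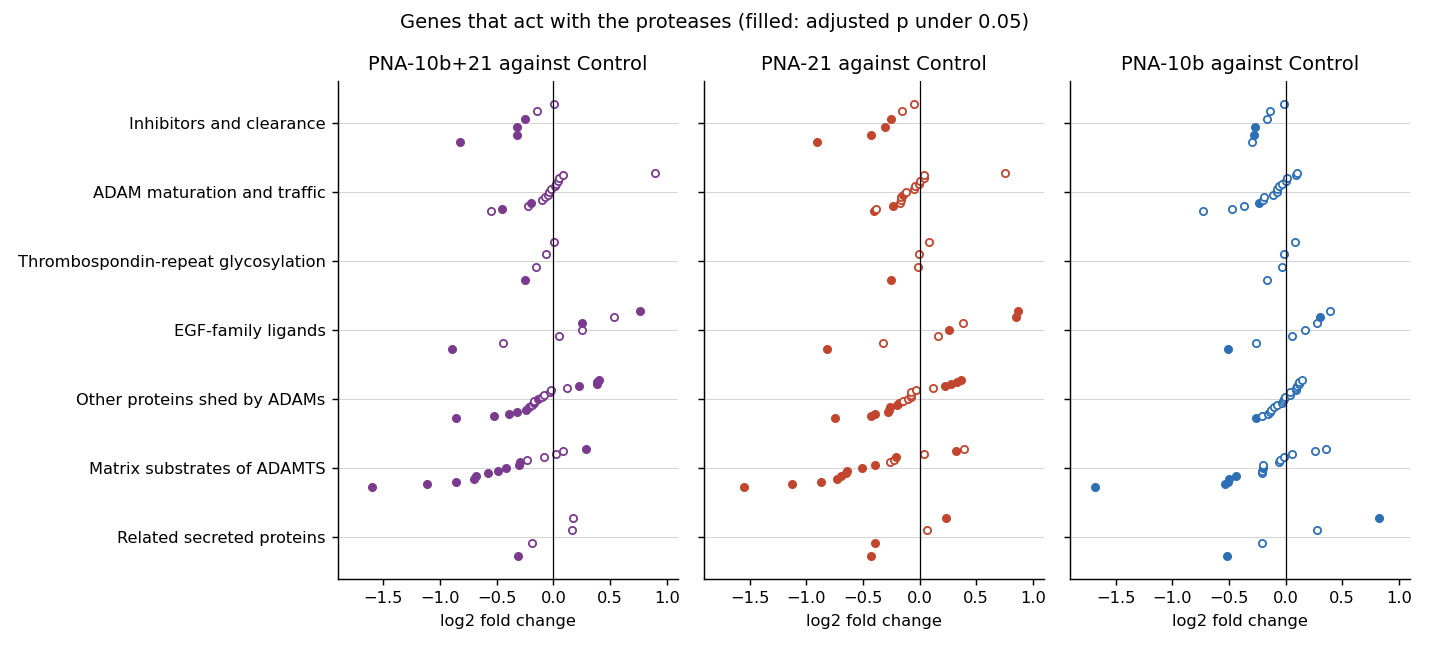
Log2 fold change of the tested genes in 7 lists of partners of the proteases, for PNA-10b+21, PNA-21 and PNA-10b against Control, with 1 point per gene and filled points where the adjusted p was under 0.05. The inhibitors and the matrix substrates lie mostly left of 0, and the EGF-family ligands lie on both sides.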

How the data were processed

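Per-gene read counts, whole and not normalized, were deposited by the authors as 1 table with Ensembl identifiers. The tools HISAT2 2.1.0, SAMtools 1.7, HTSeq 0.11.0 and hg38 are named in the submitters' processing notes, and the labels' protocols give mirVana extraction and TruSeq Stranded mRNA libraries. No source used here gives the strand setting or the annotation release, so counts where genes overlap are less certain.

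Genes were filtered with filterByExpr of edgeR 4.0.16 (R 4.3.3) at a minimum count of 10, which kept 15715 genes with 99.8% of counts. Counts were scaled with TMM factors and fitted over all 12 libraries with glmQLFit, with a mean per group. The 6 pairwise comparisons and the interaction were tested with glmQLFTest, and p-values were adjusted by Benjamini-Hochberg over all genes of a comparison, at a threshold of 0.05. Library totals of 12846676 to 18305820 limit the precision of members with few counts. Pearson correlations of log CPM within groups were 0.992 to 0.993, and no pair of libraries differed as little as counting noise (chi-square over degrees of freedom 2.56 to 5.09). The fit was tested on simulated data.

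Exon lengths, positions and 3′ UTRs come from GENCODE release 29, which matched 34564 genes of the table and all 41 members, and promoters and microRNAs from RefSeq on GRCh38.p14. UTR searches used the longest annotated 3′ UTR, and 1 seed match site is not reported here. Protein sequences were not used here.

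Values in every library are given for members that passed in at least 1 comparison and for the 3 highest of each family in Control. Outside this rule they are also given for ADAM15 and, as counts, for ADAMTS9. From each partner list up to 4 genes were named by the smallest p over the 4 groups, and those named beyond that, TIMP1, RECK, RHBDF1, RHBDF2 and BTC, were chosen after their values were seen. The members and the gene lists were chosen with earlier results of these data known, so no test was made of the family as a set, and its shares are descriptions. Alternatives were RLE and upper quartile scaling, DESeq2 1.42.0, other filters, only the groups compared, a replicate block and leaving out each library.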

Additional observations from a re-analysis of the deposited data

Results flagged for a closer look

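For 3 ADAMTS genes the difference between PNA-10b+21 and PNA-10b was not the difference between PNA-21 and Control, by the test of the interaction. Only the second of these differences includes the carrier against no carrier, so a carrier effect cannot be told apart from an effect of the sgPNAs together. For ADAMTS5 the interaction was -0.66 ± 0.13 on the log2 scale (edgeR, adjusted p = 0.0101), with 88.5 ± 4.92 CPM in PNA-10b+21, 105 ± 15.6 in PNA-21, 108 ± 6.48 in PNA-10b and 81.2 ± 11.3 in Control (SD, n = 3 each). For ADAMTS14 it was 0.69 ± 0.19 (adjusted p = 0.0474), with changes against Control of -0.68 ± 0.13 for PNA-10b+21, -0.82 ± 0.13 for PNA-21 and -0.55 ± 0.13 for PNA-10b. For ADAMTS12 it was 0.32 ± 0.09 (adjusted p = 0.0494), with 78.2 ± 4.07, 74.3 ± 4.11, 78.3 ± 5.89 and 92.9 ± 4.41 CPM in PNA-10b+21, PNA-21, PNA-10b and Control. The ADAMTS5 call held in every alternative tried, whereas the ADAMTS14 call was lost in 9 of 18 and the ADAMTS12 call in 10 of 18. Over all genes tested 3.12% passed the same test.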

How the results depend on the processing

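In all, 45 pairs of a member and a comparison passed. No change of sign occurred among them in 7 alternatives of processing and 12 fits that each left out 1 library; 29 pairs passed in all of these and 40 in all alternatives that kept every library. The number of members that rose in PNA-10b against Control was 1, and was 3 with DESeq2 and 2 with RLE scaling, without the filter on low counts, with only the groups compared and with the replicate block; ADAMTS6 was the gene added in each (0.34 to 0.35), joined by ADAMTS1 with DESeq2 (0.14). The number above 0 in the interaction was 2, and 1 with RLE or upper quartile scaling. The number below 0 in the interaction was 1, and 2 without the filter, where ADAMTS6 was added (-0.41). Between PNA-10b+21 and PNA-21, 1 member, ADAMTS5, fell without the filter (-0.25, adjusted p = 0.0044), against 0. Between PNA-21 and PNA-10b, 2 members rose with DESeq2, against 1, with ADAMTS1 added (0.15), and ADAM28 was added among those lower with DESeq2 and without the filter (-0.74 in both). DESeq2 also added ADAM10 (-0.17) and ADAM12 (-0.14) among those lower in PNA-10b against Control. The causes were not tested.

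Leaving out 1 library gave 0 to 2 members higher and 1 to 4 lower in PNA-10b against Control (1 and 4 with all libraries). For PNA-10b+21 against PNA-10b it gave 1 to 3 higher and 3 to 6 lower (2 and 5). For PNA-21 against PNA-10b it gave 1 to 2 higher and 2 to 4 lower (1 and 3). For the interaction it gave 0 to 3 above 0 and 1 to 2 below 0 (2 and 1). The counts against Control ranged from 3 to 4 higher and 6 to 9 lower in PNA-10b+21, and from 4 to 5 higher and 8 to 9 lower in PNA-21. A library left out leaves fewer samples in its group.

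The groups share replicate numbers, and deviations of same-numbered libraries correlated at -0.058 to 0.109 over 18 pairs. These correlations do not settle whether same-numbered libraries were made together, and the main fit held no term for the number. With a replicate block 562 genes rose and 709 fell in PNA-10b against Control, against 432 and 587 in the main fit. The fit with the replicate block gave 2 members higher in PNA-10b against Control, and added ADAM22 in both sgPNA-21 arms, ADAM11 in PNA-21 and ADAM10 in PNA-10b. Members with few counts, such as ADAM11, ADAM32 and ADAMTSL4, have wide intervals at this depth.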

Other observations

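Secreted relatives of the family were also measured, namely the papilin PAPLN, the ADAMTS-like THSD4 and the metzincin proteases PAPPA and PAPPA2, which cut insulin-like growth factor binding proteins. Of these 4, 0 rose and 1 fell in PNA-10b+21, 1 (THSD4) rose and 2 fell in PNA-21, and 1 rose and 1 fell in PNA-10b. These were 25%, 75% and 50% of the list, where 27%, 29.8% and 6.48% of all genes passed. PAPPA2 had 10.4, 11.5 and 10.5 CPM in PNA-10b+21, 10.1, 9.49 and 10.4 CPM in PNA-21, 17.2, 18.6 and 14.8 CPM in PNA-10b, and 8.92, 10.4 and 9.28 CPM in Control. It was high in PNA-10b alone, and the other 3 groups lay between 8.92 and 11.5 CPM. Its log2 change was 0.17 ± 0.11 for PNA-10b+21, 0.07 ± 0.11 for PNA-21 and 0.82 ± 0.10 for PNA-10b, where it passed (edgeR, adjusted p = 6.07e-05), and the interaction was -0.72 ± 0.15 (adjusted p = 0.0127). PAPPA fell by 0.31 ± 0.07 in PNA-10b+21 (adjusted p = 0.00187) and 0.39 ± 0.07 in PNA-21 (adjusted p = 2.51e-04). PAPLN had -0.19 ± 0.13 (adjusted p = 0.314), -0.43 ± 0.14 (adjusted p = 0.0217) and -0.52 ± 0.14 (adjusted p = 0.0283) in PNA-10b+21, PNA-21 and PNA-10b, the first not passing.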
